A study of Mus musculus with 16 samples.

Results

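The genes RUNX2, SP7, SPP1, ALPL, IBSP, BGLAP1, SPARC and OGN, which are best known from bone and cartilage, were followed in cultures of a bone marrow stromal line and in mouse embryonic stem (ES) cells grown on that line. They were chosen by symbol: each probe whose target name equalled RUNX2, SP7, SPP1, ALPL, AKP2, IBSP, BGLAP1, SPARC or OGN was taken. Of these 9 symbols, ALPL was not among the target names used here, and its older symbol AKP2 stood for the gene. The members therefore comprised 8 genes of 30854 target names and 19 probes of 45281. Of the 8 genes, 4 (SPP1, AKP2, SPARC and OGN) were detected on every array of at least 1 group and entered the tests, together with 14829 genes in all. RUNX2, SP7, IBSP and BGLAP1 did not pass this filter.

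All 16 cultures were analysed at day 7 in serum-free medium, 1 Illumina MouseWG-6 v2.0 array each. ES/PA6 co-cultures were ES cells seeded on a layer of PA6 cells, and PA6 mono-cultures were the same stromal line alone. Each kind of culture was left without growth factors (-GFs) or received either FGF2 (20 ng/ml) or, per the labels, BMP4 (10 ng/ml), and the methods add that the factor was withdrawn after 3 days and give a lower BMP4 dose. Co-cultures comprised 2 arrays for -GFs, 3 for FGF2 and 2 for BMP4, and PA6 mono-cultures comprised 3 arrays of each. All co-cultures shared a single ES line, which carries the green fluorescent protein gene knocked in under the τ promoter, and all 16 cultures held PA6 cells from a single line. Both partners of a co-culture are mouse cells, so a probe reads their RNA together.

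Bone-forming cells arise from mesenchymal progenitors under the transcription factor RUNX2, and SP7 (osterix) acts downstream of it. Their matrix contains collagen together with proteins that bind mineral, integrins or collagen, among them osteopontin (SPP1), bone sialoprotein (IBSP), osteocalcin (BGLAP1) and osteonectin (SPARC), while tissue-nonspecific alkaline phosphatase (AKP2) frees phosphate for mineral. Most of these proteins are not restricted to bone: osteopontin is also made by macrophages and many other cells, alkaline phosphatase is abundant on pluripotent stem cells, and SPARC and osteoglycin (OGN), a small leucine-rich proteoglycan, are made widely by fibroblasts and stroma.

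The deposited table gives, for each probe and array, an average bead intensity and a detection p-value, the latter giving how often negative control beads outshone that probe. Between 16904 and 21261 probes per array had a detection p-value under 0.05. Arrays of 1 group correlated at 0.973 to 0.986 over probes, and arrays of different kinds of culture at 0.723 to 0.797. All 12 stromal markers listed were tested, and 12 of 12 pluripotency markers. The summed linear level of the stromal markers was 175780 to 237500 in PA6 mono-cultures and 27188 to 46956 in co-cultures, and that of the pluripotency markers was 628 to 1159 in PA6 mono-cultures, with 6 to 9 of 12 not detected on any array of a group, and 42114 to 150210 in co-cultures. As arrays read bulk RNA, fewer cells of a type and less RNA per cell cannot be told apart.

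RUNX2 and SP7 were at the detection limit in all groups. RUNX2 had 2 probes, and neither was detected on any of the 16 arrays, with intensities between 112.7 and 241.9. SP7 had 2 probes, detected on 2 and 3 of 16 arrays. The 5 detections of SP7 lay on 4 arrays of different kinds: 1 co-culture without factors, 1 co-culture with FGF2, 1 PA6 mono-culture without factors (both probes) and 1 PA6 mono-culture with FGF2. The highest SP7 intensity was 330.8. No group had SP7 detected on all of its arrays.

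The late matrix proteins of bone behaved likewise. IBSP had 3 probes, of which 1 was detected on 2 of 16 arrays and the others on none, at intensities of 113.6 to 305.2. BGLAP1 had 3 probes, detected on 3, 1 and 0 of 16 arrays, at intensities of 128.3 to 390.6. BGLAP1 is uncertain as an identity, since RefSeq gives it as an older name of both Bglap and Bglap2, neighbouring osteocalcin genes of near-identical sequence. Over the 10 probes of RUNX2, SP7, IBSP and BGLAP1, 11 of 160 measurements (6.88%) were under a detection p-value of 0.05, the cutoff that by its definition 5% of negative control beads would pass. Without any filter, in a fit over 30854 target names, none of these 4 genes was called in any of the 11 comparisons, and their largest difference in any of them was 1.30 on the log2 scale. At this sensitivity a low level of these mRNAs was not detectable, which is a limit of the arrays and no sign of absence.

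**Figure D1:**
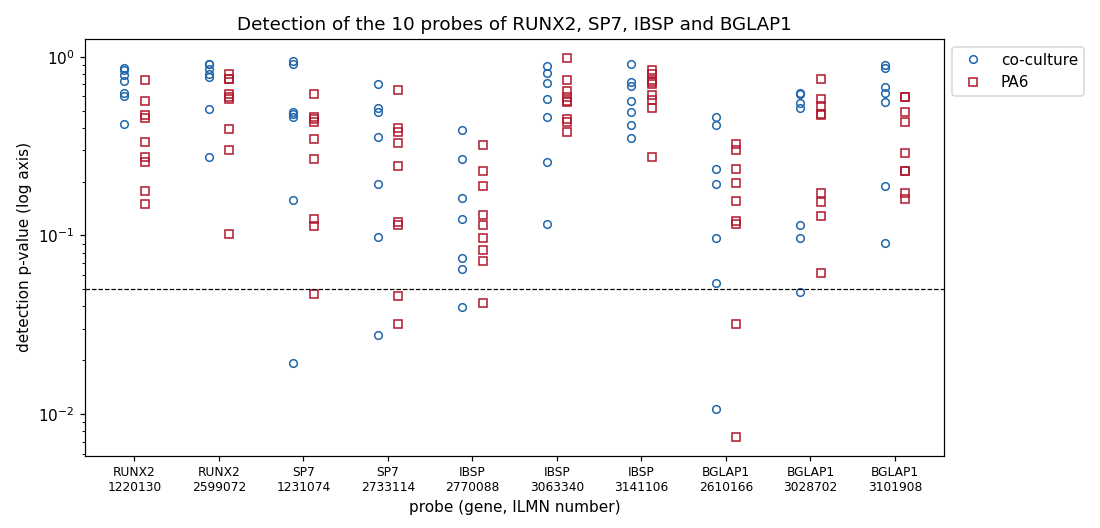
Detection p-value (log axis) of each of the 10 probes of RUNX2, SP7, IBSP and BGLAP1 on 7 co-culture arrays (circles) and 9 PA6 arrays (squares), with the cutoff of 0.05 as a dashed line. Of 160 points, 11 lie under the line, none of them from RUNX2, and no probe is under it on every array of a group.

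The 250 bases before the start site are shown for 3 members whose differences below were largest: SPP1 and ALPL (AKP2), which moved together in co-cultures, and OGN, which was lower there. The sequences are from RefSeq on GRCm38.p6, 5′ to 3′ along the gene, and the most upstream start is shown for Spp1 and Alpl, which have 2 starts each. Capitals mark a match to the RUNX core motif TGTGGT or its reverse complement ACCACA, and the AP-1 motif TGANTCA was searched too, on both strands; the motifs do not overlap here.
Spp1, chr5:104434861-104435110, plus strand: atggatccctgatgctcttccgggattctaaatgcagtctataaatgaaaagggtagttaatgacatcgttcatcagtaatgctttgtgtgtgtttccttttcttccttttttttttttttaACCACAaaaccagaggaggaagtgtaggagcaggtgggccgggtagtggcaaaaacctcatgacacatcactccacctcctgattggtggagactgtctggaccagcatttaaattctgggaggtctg
Alpl, chr4:137796385-137796634, minus strand: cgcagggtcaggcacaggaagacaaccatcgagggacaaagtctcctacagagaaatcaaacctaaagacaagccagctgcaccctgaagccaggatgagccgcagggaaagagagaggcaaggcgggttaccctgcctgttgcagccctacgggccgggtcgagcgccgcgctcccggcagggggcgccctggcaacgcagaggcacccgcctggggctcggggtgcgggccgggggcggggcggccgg
Ogn, chr13:49607765-49608014, plus strand: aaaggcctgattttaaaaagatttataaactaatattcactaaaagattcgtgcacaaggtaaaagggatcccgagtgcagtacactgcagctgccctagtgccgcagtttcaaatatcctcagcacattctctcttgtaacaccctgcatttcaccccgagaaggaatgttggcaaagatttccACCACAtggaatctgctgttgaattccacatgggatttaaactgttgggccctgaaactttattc

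Spp1 held 1 RUNX motif, starting 128 bases before the start site, and Ogn held 1, starting 65 bases before it. Neither start of Alpl, nor the other start of Spp1, held one, and none of these windows held the AP-1 motif. Among 32851 upstream windows of the same length in the table, 14.0% held the RUNX motif and 6.75% the AP-1 motif. GC content was 43.6% for the Spp1 window, 68.4% for the Alpl window and 42% for the Ogn window. These matches describe the letters only.

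SPP1, osteopontin, a secreted phosphoprotein that binds integrins and mineral, was the member with the largest response to a factor. Its single probe was detected on all 16 arrays. In co-cultures without growth factors its intensity was 1166 and 1381. With FGF2 it was 8584, 8379 and 8056, and with BMP4 3847 and 2787. The 3 groups did not overlap, with every FGF2 array above every BMP4 array and every BMP4 array above both -GFs arrays. In PA6 mono-cultures it was 1026, 1249 and 628.3 without factors, 5051, 5478 and 4057 with FGF2, and 529.6, 927.7 and 1095 with BMP4. There, too, all FGF2 arrays were above all others, while the BMP4 arrays overlapped those without factors.

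In normalised log2 units, the co-culture means of SPP1 were 10.16 ± 0.21 (SD, n = 2) for -GFs, 13.06 ± 0.10 (SD, n = 3) for FGF2 and 11.74 ± 0.46 (SD, n = 2) for BMP4. Calls required an adjusted p under 0.1 in limma (Benjamini-Hochberg, over all genes tested) together with a log2 fold change over 1 in size. FGF2 raised SPP1 by 2.90 ± 0.24 (SE), a 7.47-fold change, with adjusted p = 0.00451 in limma, and this call held in all 18 alternative settings, each co-culture array left out in turn included. BMP4 raised it by 1.58 ± 0.26 (SE), 2.99-fold, with adjusted p = 0.0342 in limma. The BMP4 call ended without -GFs replicate 1 (adjusted p = 0.139 in limma), without -GFs replicate 2 (0.102) and without BMP4 replicate 1 (0.152), and with replicate numbers as a block (0.117), but not with runs of columns in the table as a block (0.0839). SPP1 was lower with BMP4 than with FGF2 by -1.32 ± 0.24 on the log2 scale (adjusted p = 0.0839 in limma), a call lost when any co-culture array other than BMP4 replicate 1 was left out, with adjusted p of 0.105 to 0.370 in limma, and with the replicate block (0.179), but not with the block of column runs (0.0683). SPP1 was among the transcripts that the study took from the arrays for real-time PCR, which it reports as raised at day 7 with FGF2 and with BMP4. That choice followed from these arrays, so the SPP1 response is not independent evidence of a response of the group of genes.

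In PA6 mono-cultures, the means of SPP1 were 9.53 ± 0.66 (SD, n = 3) for -GFs, 12.22 ± 0.24 (SD, n = 3) for FGF2 and 9.37 ± 0.80 (SD, n = 3) for BMP4. The difference with FGF2 was 2.70 ± 0.43 (SE), 6.48-fold, and its adjusted p of 0.127 in limma missed the threshold. It was called in 6 of 20 alternatives, with adjusted p of 0.0208 to 0.311 in limma over all of them, and among the single arrays left out only PA6 BMP4 replicate 1 brought a call (adjusted p = 0.0787). The difference with BMP4 was -0.16 ± 0.43 (SE; adjusted p = 0.936 in limma). BMP4 arrays were below FGF2 arrays by -2.85 ± 0.43 (SE), a 7.23-fold difference that was called with adjusted p = 0.0765 in limma; leaving out 1 array ended the call for 6 of 9 arrays, namely PA6 -GFs replicate 1, each PA6 FGF2 array, and PA6 BMP4 replicates 1 and 3, with adjusted p of 0.133 to 0.236. The summed level of the 12 adipocyte markers in PA6 was 18355 to 180950 with BMP4, 4608 to 6717 with FGF2 and 5634 to 24409 without factors. None of the 7 tested was called for BMP4 against FGF2 there. Their part in the SPP1 difference was not tested.

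Ordered by mean, SPP1 was highest in co-cultures with FGF2, followed by PA6 with FGF2, co-cultures with BMP4, co-cultures without factors, PA6 without factors and PA6 with BMP4. Neighbours in this order overlapped in range except the first pair and the step from co-cultures with BMP4 to co-cultures without factors. The change with FGF2 differed between the kinds of culture by 0.20 ± 0.56 (SE; adjusted p = 0.871 in limma). The change with BMP4 was larger in co-cultures by 1.74 ± 0.59 (SE), with adjusted p = 0.154 in limma; the adjusted p fell to 0.0751 without PA6 -GFs replicate 3 and to 0.0927 without PA6 BMP4 replicate 3. Between cultures with the same factor, SPP1 was higher in co-cultures than in PA6 by 2.37 ± 0.41 with BMP4 (SE; adjusted p = 0.000228 in limma) and was called. The corresponding difference was 0.63 ± 0.41 without factors (adjusted p = 0.203) and 0.84 ± 0.37 with FGF2 (adjusted p = 0.0600), neither of which was called.

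Beside SPP1, the macrophage markers are given because macrophages make osteopontin. Of 15 listed names, 5 were tested, and only LAPTM5, a lysosomal membrane protein of blood cells, was called with FGF2 in co-cultures, at 4.11 ± 0.59 (SE; adjusted p = 0.0120 in limma). Their summed level was 1138 to 1261 in co-cultures without factors, 3922 to 7134 with FGF2 and 1954 to 3076 with BMP4, and 8, 8 and 6 of the 15 were not detected on any array of these groups. In PA6 it was 3280 to 3972 without factors and 3654 to 4274 with FGF2, and no macrophage marker was called there. Pluripotency markers, given with AKP2 below, also moved in the order of the SPP1 means of the co-cultures, -GFs lowest and FGF2 highest. The part of either kind of cell in the SPP1 levels of co-cultures was not tested.

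AKP2, the alkaline phosphatase that hydrolyses pyrophosphate during mineralization, was read by 1 probe, detected on 7 of 7 co-culture arrays and 5 of 9 PA6 arrays. Its intensity in co-cultures was 385.1 and 453.1 without factors, 1648, 1582 and 1225 with FGF2, and 1083 and 738.3 with BMP4. All factor-treated co-cultures were thus above both -GFs co-cultures, and all BMP4 arrays were below all FGF2 arrays. In PA6 it was 228.1, 152.6 and 258.9 without factors, 240.9, 168.2 and 224.6 with FGF2, and 246.2, 274.8 and 224.0 with BMP4. The PA6 groups overlapped, and every PA6 array was below every co-culture array.

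The co-culture means of AKP2 were 7.94 ± 0.41 (SD, n = 2) for -GFs, 10.34 ± 0.22 (SD, n = 3) for FGF2 and 9.62 ± 0.54 (SD, n = 2) for BMP4 in log2 units. FGF2 raised AKP2 by 2.40 ± 0.30 (SE), 5.29-fold, with adjusted p = 0.00871 in limma, and the call held when any co-culture array was left out. BMP4 raised it by 1.68 ± 0.33 (SE), 3.21-fold, with adjusted p = 0.0545 in limma, and this call ended without -GFs replicate 1 (0.211), -GFs replicate 2 (0.109) or BMP4 replicate 1 (0.247), and with the replicate block (0.141) or the block of column runs (0.130). The difference between BMP4 and FGF2 was -0.72 ± 0.30 (SE; adjusted p = 0.337 in limma) and was not called. In PA6 the means were 6.52 ± 0.65, 6.53 ± 0.50 and 6.80 ± 0.30 (SD, n = 3 each) for -GFs, FGF2 and BMP4. The differences from -GFs there were 0.01 ± 0.35 for FGF2 and 0.28 ± 0.35 for BMP4 (SE; adjusted p = 0.993 and 0.844 in limma).

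The FGF2 change of AKP2 was larger in co-cultures than in PA6 by 2.39 ± 0.51 (SE), with adjusted p = 0.0133 in limma, and this test of the difference held when any of the 16 arrays was left out (adjusted p of 0.00531 to 0.0700). The corresponding difference for BMP4 was 1.41 ± 0.54 (SE; adjusted p = 0.218 in limma), which passed the threshold only without PA6 -GFs replicate 2 (adjusted p = 0.0870). Between cultures with the same factor, AKP2 was higher in co-cultures by 1.42 ± 0.38 without factors, 3.81 ± 0.34 with FGF2 and 2.83 ± 0.38 with BMP4 (SE; adjusted p of 0.00491, 3.18e-07 and 2.27e-05 in limma). No PA6 group had AKP2 detected on all its arrays, so it entered all of these tests through its co-culture groups alone, where it is high. The PA6 side of these differences lay near the detection limit, with AKP2 detected on 2 of 3 arrays without factors, 1 of 3 with FGF2 and 2 of 3 with BMP4, so their sizes are uncertain. Without background correction the first was 0.77, under the fold threshold. In the order of means, the 3 co-culture groups stood apart from one another and from PA6, while the 3 PA6 groups overlapped.

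Markers of pluripotent cells, which carry this phosphatase, moved with AKP2. Of 12 tested, 11 were called higher with FGF2 in co-cultures and 4 with BMP4, with medians of 2.55 and 1.24 on the log2 scale against -0.06 and 0.00 over all genes. Their summed level was 42114 to 48873 in co-cultures without factors, 127800 to 150210 with FGF2 and 75542 to 98278 with BMP4, which is the order of the AKP2 means. None of the 12 stromal markers was called with either factor in co-cultures, with medians of 0.10 and 0.29. The part of pluripotent cells in the AKP2 difference was not tested.

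**Figure D2:**
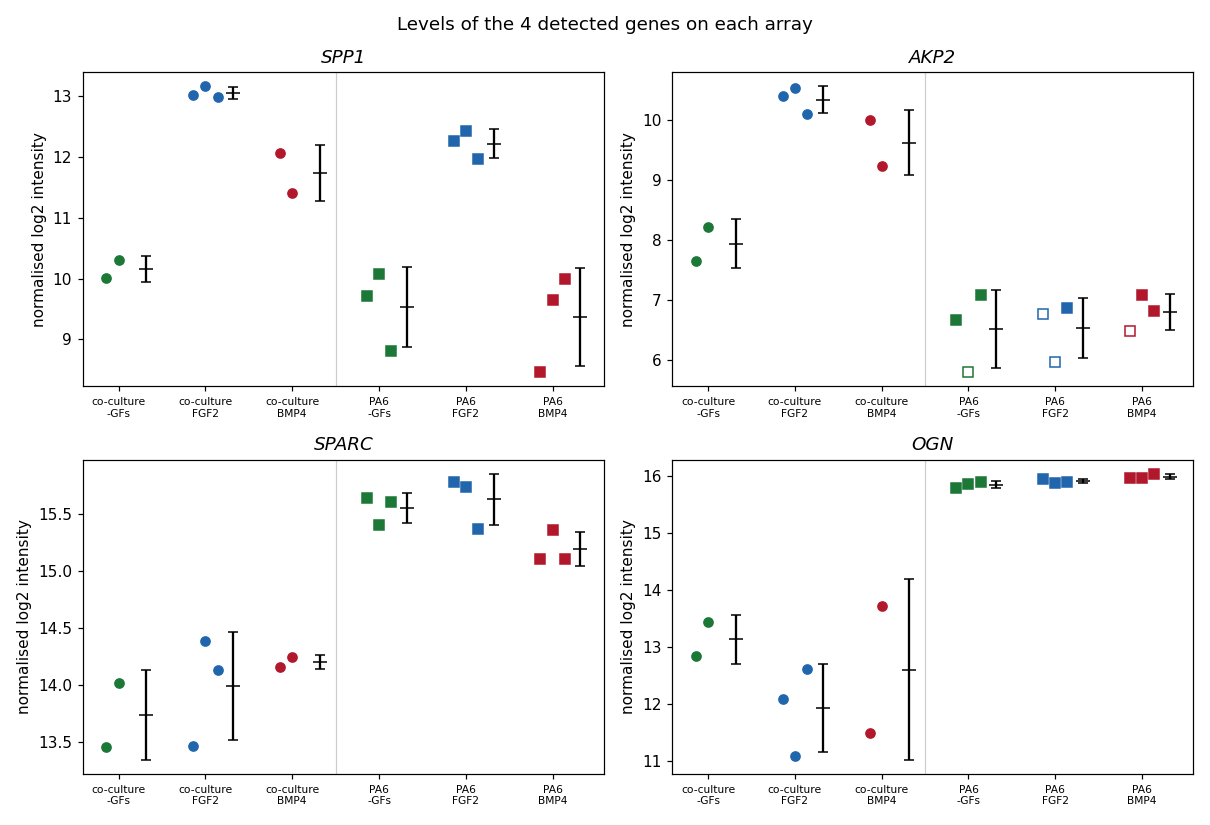
Normalised log2 intensity of SPP1, AKP2, SPARC and OGN on each array, in co-cultures (circles) and PA6 (squares) without factors (green), with FGF2 (blue) and with BMP4 (red); open symbols were not detected, and bars give the mean ± SD of the group. SPP1 was above all other arrays of its kind of culture with FGF2, AKP2 only in co-cultures, and SPARC and OGN were higher in PA6 than in co-cultures on every array.

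SPARC, a collagen-binding matricellular protein and the main non-collagen protein of bone matrix, was detected by all 4 of its probes on all 16 arrays. The brightest probe, which represented the gene, read 10765 and 16370 in co-cultures without factors, 11323, 19726 and 18476 with FGF2, and 16434 and 19947 with BMP4. In PA6 it read 52453, 44635 and 54068 without factors, 50815, 53684 and 43063 with FGF2, and 34902, 42205 and 35071 with BMP4. Every PA6 array was above every co-culture array, and the co-culture groups overlapped except that BMP4 lay above -GFs. No growth factor comparison of SPARC was called in either kind of culture. The differences from -GFs in co-cultures were 0.26 ± 0.31 for FGF2 and 0.46 ± 0.34 for BMP4 (SE; adjusted p = 0.683 and 0.617 in limma). In PA6 they were 0.08 ± 0.15 for FGF2 and -0.36 ± 0.15 for BMP4 (SE; adjusted p = 0.886 and 0.544 in limma), and on this probe all PA6 BMP4 arrays were below all other PA6 arrays. The probes differed in this. On the dimmest probe BMP4 had the highest PA6 mean, 9.94 against 9.74 without factors and 9.31 with FGF2 in log2 units. On another the BMP4 arrays (14.58 to 14.77) overlapped those without factors (14.75 to 14.91).

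SPARC was lower in co-cultures than in PA6 by -1.82 ± 0.25 without factors and -1.64 ± 0.22 with FGF2 (SE; adjusted p = 2.33e-05 and 1.76e-05 in limma), which are 3.53-fold and 3.11-fold differences. With BMP4 the difference was -0.99 ± 0.25 (SE; adjusted p = 0.00334 in limma), past the p threshold and just under the fold threshold, so it was not called. Without co-culture BMP4 replicate 2 it was -1.04, and without either replicate 1 or replicate 3 of PA6 with BMP4 it was also -1.04, each time over that threshold. With runs of columns as a block it was -1.23 ± 0.18 (SE, adjusted p = 0.00025 in limma) and was called, and with the replicate block it was -0.92 and was not. All 4 SPARC probes were called lower in co-cultures without factors (-1.82 to -1.37) and with FGF2 (-2.01 to -1.64), and 2 of 4 with BMP4, at -1.20 and -2.87. The dimmest probe parted from the others with BMP4: it read 396.6 and 433.2 in co-cultures without factors and 264.4 and 300.5 with BMP4, a difference of -0.85 ± 0.26 (SE; adjusted p = 0.187 in limma over all probes), whereas the other 3 probes gave 0.05 to 0.46.

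OGN, osteoglycin or mimecan, a leucine-rich proteoglycan of bone, cartilage and soft connective tissue that binds collagen fibrils, had the largest difference of the members between the kinds of culture. Its brightest probe read 7148 and 10981 in co-cultures without factors, 4736, 2173 and 6230 with FGF2, and 2632 and 13877 with BMP4. In PA6 it read 56280, 60077 and 64853 without factors, 58671, 61039 and 64052 with FGF2, and 61283, 64311 and 69018 with BMP4. The PA6 readings were 79.7% to 98.6% of the highest intensity on their array, close to the top of the scale, where differences are compressed. The co-culture groups with BMP4 and with FGF2 spread widely, with an SD of 1.59 between the 2 BMP4 arrays.

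OGN was lower in co-cultures than in PA6 by -2.71 ± 0.51 without factors, -3.99 ± 0.45 with FGF2 and -3.39 ± 0.51 with BMP4 (SE; adjusted p = 0.000371, 3.45e-06 and 6.16e-05 in limma). The corresponding ratios were 6.56-fold, 15.9-fold and 10.5-fold. The other 2 probes of OGN, which were far from the top of the scale in PA6 and were detected on 5 and 6 of 7 co-culture arrays, gave -5.48 and -5.49 without factors, -4.63 and -5.41 with FGF2, and -4.46 and -4.22 with BMP4, all called. The 3 probes therefore share the direction and differ in size by up to 2.77 on the log2 scale. Within co-cultures OGN was lower with FGF2 by -1.22 ± 0.69 (SE; adjusted p = 0.351 in limma) and was not called; with median scaling in place of quantile normalization it was, at -1.43 (adjusted p = 0.0657). Stromal markers moved the same way between the kinds of culture: 11 of 12 were called lower in co-cultures without factors, 10 with FGF2 and 10 with BMP4, with medians of -2.79, -2.27 and -1.95. Over all genes 44.1%, 46.4% and 42.4% were called in these comparisons, higher or lower.

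The dimmer OGN probes also gave another reading of FGF2 in PA6 than the bright one. The bright probe differed from -GFs by 0.06 ± 0.10 (SE; adjusted p = 0.861 in limma). The first dimmer probe read 7652, 7585 and 13296 without factors, 3502, 3693 and 2730 with FGF2 and 4158, 4962 and 4776 with BMP4. The second read 9575, 10734 and 11650 without factors, 5411, 5723 and 4791 with FGF2 and 7779, 7102 and 6946 with BMP4. On both, all FGF2 arrays and all BMP4 arrays were below all arrays without factors. The differences with FGF2 were -1.35 ± 0.23 and -0.86 ± 0.13 (SE; adjusted p = 0.150 and 0.114 in limma over all probes), and with BMP4 -0.92 ± 0.23 and -0.47 ± 0.13 (SE; adjusted p = 0.481 for each). None of these passed the threshold.

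**Figure D3:**
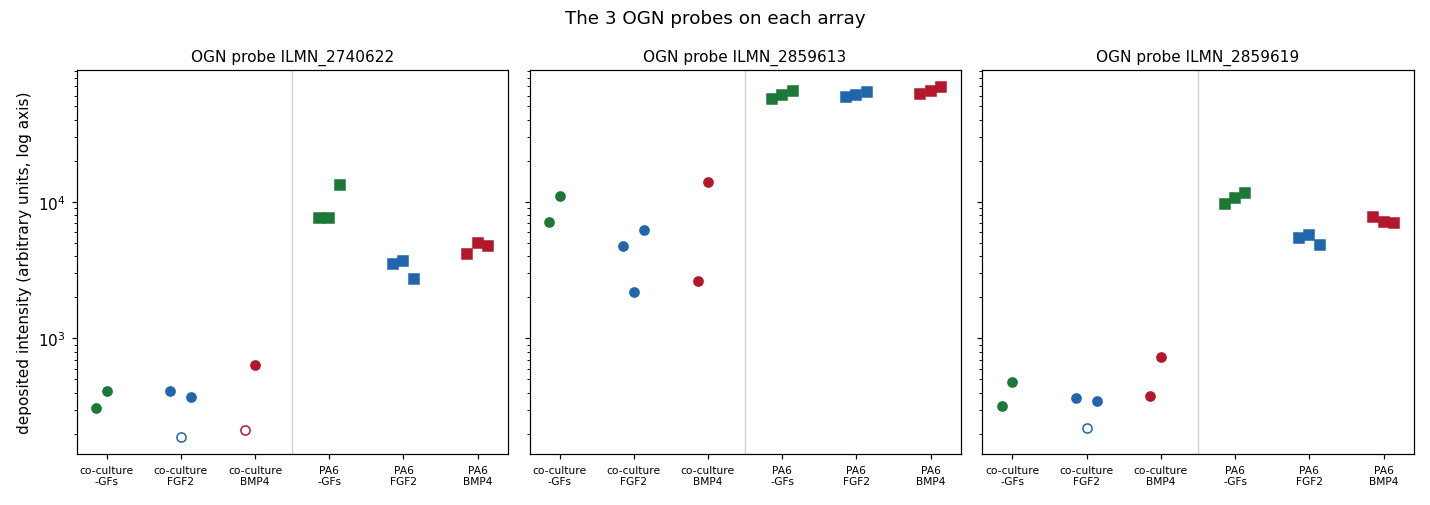
Deposited intensity (log axis) of the 3 OGN probes on each array, in co-cultures (circles) and PA6 (squares) without factors (green), with FGF2 (blue) and with BMP4 (red); open symbols were not detected. All probes are higher in PA6, where the bright probe in the middle lies between 56280 and 69018 in all 3 groups while the other probes are lower with either factor than without.

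Across the members, the number called is to be read against the share of all genes called in the same comparison. With FGF2 in co-cultures 2 of 4 tested members were called, SPP1 and AKP2, both higher, against 7.42% of all genes, and with BMP4 the same 2 genes, both higher, against 3.75%. BMP4 against FGF2 in co-cultures gave 1 of 4 (SPP1, lower with BMP4) against 1.44%. In PA6, FGF2 gave 0 of 4 against 0.027%, where 1536 genes had an unadjusted p under 0.05 in limma, and BMP4 gave 0 of 4 against 0% of all genes, where 1334 had. BMP4 against FGF2 in PA6 gave 1 of 4 (SPP1) against 0.31%. With the replicate block, 23 genes in place of 4 were called for FGF2 in PA6 and 72 in place of 46 for BMP4 against FGF2, with the same members called. In co-cultures that block left no member called with BMP4, against 1.74% of all genes, and none for BMP4 against FGF2, against 0.0742%. SPP1 and AKP2 stayed called with FGF2, against 6.66%. With runs of columns as a block SPP1 alone was called with BMP4, against 4.02%, and for BMP4 against FGF2, against 3.78%. Between the kinds of culture 3 of 4 members were called with each factor condition, against 44.1% of all genes without factors, 46.4% with FGF2 and 42.4% with BMP4. These were AKP2 (higher in co-cultures), SPARC and OGN (lower) without factors and with FGF2, and AKP2 and SPP1 (higher) and OGN (lower) with BMP4. AKP2 had passed the filter through its co-culture groups alone. The FGF2 change differed between the kinds of culture for 1 of 4 (AKP2) against 7.9% of all genes, and the BMP4 change for 0 of 4 against 4.23%, where 2304 genes had an unadjusted p under 0.05 in limma.

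The median change of the 4 tested members was 1.33 with FGF2 and 1.02 with BMP4 in co-cultures on the log2 scale, where that of all genes was -0.06 and 0.00. The comparisons of FGF2 and BMP4 in each kind of culture share the -GFs arrays, so their values are given side by side only. With 4 genes of different behaviour, the medians describe no common shift: SPP1 and AKP2 rose in co-cultures while SPARC and OGN did not pass the test in either direction.

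**Figure D4:**
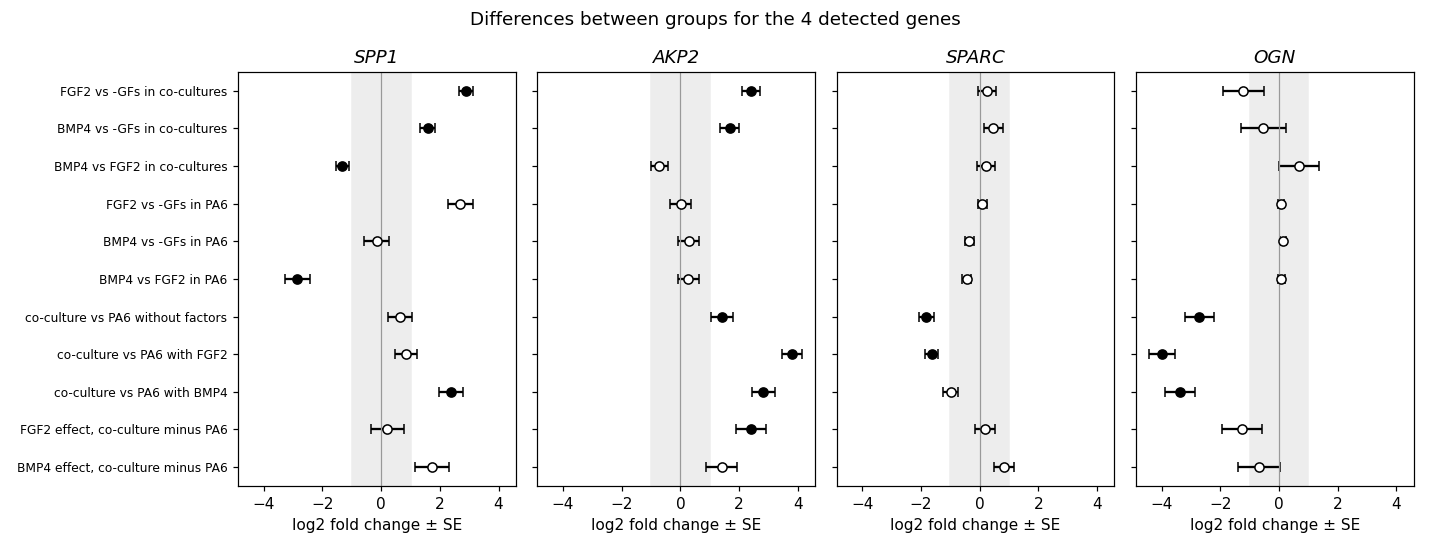
Log2 fold change ± SE of SPP1, AKP2, SPARC and OGN in the 11 comparisons, with filled points for called genes and the range within 1 of no change shaded. SPP1 and AKP2 were called with FGF2 (2.90 and 2.40) and BMP4 (1.58 and 1.68) in co-cultures, SPP1 reached 2.70 with FGF2 in PA6 without passing the test, and SPARC and OGN were lower in co-cultures than in PA6.

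Other genes of the same processes were taken from 5 lists. Of 19 osteoblast regulators and signals among the target names, 10 were tested. With BMP4 in co-cultures 2 of these were called higher, DLX3, a homeobox factor of skeletal and ectodermal cells, at 1.45 ± 0.17 (SE; adjusted p = 0.0132 in limma), and TWIST1, a mesenchymal transcription factor that restrains RUNX2, at 1.13 ± 0.23 (SE; adjusted p = 0.0610 in limma). With FGF2 none was called. The shares of all genes called were 3.75% with BMP4 and 7.42% with FGF2. Between the kinds of culture without factors 1 was called higher in co-cultures and 5 lower, the lowest being the vitamin D receptor VDR at -4.07 ± 0.35, OSR2 at -2.26 and RUNX1 at -2.11. The list median was -1.21, against 0.03 for all genes. With FGF2 1 was higher and 5 lower, and with BMP4 2 were higher and 3 lower. These counts of 10 genes stand beside 44.1% of all genes called without factors, 46.4% with FGF2 and 42.4% with BMP4.

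Of 22 genes of mineralization and bone matrix, 10 were tested, and none was called with either factor in either kind of culture. In co-cultures without factors 1 was higher than in PA6 and 4 were lower, among them CTSK, a collagen-degrading protease, at -2.81 ± 0.25 and CDH11, the osteoblast cadherin, at -2.39 ± 0.55 (SE). With FGF2 1 was higher and 5 lower, and with BMP4 1 was higher and 4 lower. The called counts, 5, 6 and 5 of 10, stand beside 44.1%, 46.4% and 42.4% over all genes, and the gene called higher, in the direction of AKP2, was SMPD3, a sphingomyelinase needed for mineralization, at 1.80, 1.58 and 1.41, detected on 1 of 9 PA6 arrays.

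Of 15 small leucine-rich proteoglycans other than OGN, 9 were tested, and none was called with a factor in either kind of culture. None was higher in co-cultures than in PA6, and 6 were lower without factors, 5 with FGF2 and 5 with BMP4, with list medians of -1.50, -1.44 and -1.26. Over all genes 44.1%, 46.4% and 42.4% were called in these comparisons, higher or lower. Fibromodulin (FMOD), which binds collagen fibrils as OGN does, was lower by -3.52 ± 0.39 (SE) without factors, and osteomodulin (OMD), a proteoglycan of mineralized tissue, by -3.40 ± 0.41 (SE). Of 7 relatives of SPARC 4 were tested, and 1 was called higher and 2 lower in co-cultures than in PA6 in each of the 3 conditions, beside the same shares over all genes. The 2 lower ones without factors were FSTL1 (-1.62 ± 0.19) and SMOC1 (-1.29 ± 0.18), both secreted proteins with the follistatin-like domain that SPARC has, and no relative was called with a factor.

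Of 25 cartilage genes 12 were tested. With FGF2 in co-cultures COL9A2, a chain of the cartilage collagen IX, was called at 1.93 ± 0.34 (SE; adjusted p = 0.0229 in limma), and with BMP4 COL9A1 was called, which was not detected on any array without factors. Over all genes 7.42% were called with FGF2 and 3.75% with BMP4 in co-cultures. Between the kinds of culture without factors 4 were higher in co-cultures and 4 lower, with 5 and 5 with FGF2 and 6 and 4 with BMP4. The shares of all genes called there were 44.1%, 46.4% and 42.4%. Among the lower was SOX9, the chondrogenic transcription factor, at -1.16 ± 0.15 (SE), and among the higher COL2A1, the main collagen of cartilage, which was not detected in PA6 without factors. In PA6 no gene of any of the 5 lists was called with FGF2 or BMP4.

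The genes whose pattern was most like that of each member were found by the root mean square difference of log2 levels, each gene centred on its mean, over the 16 arrays. For SPARC these were COL5A1 (0.14), FSTL1 (0.18) and VKORC1 (0.19). For AKP2 they were 3830431G21RIK (0.34), 1700011F14RIK (0.39) and GM288 (0.40), and for OGN a RIKEN cDNA (0.31), EG317677 (0.31) and DPEP1 (0.34). SPP1 had no close match: its nearest genes were CRYGD (0.79), ENPP2 (0.85) and JCAM2 (0.86).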

How the data were processed

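RNA of 16 cultures was hybridized to 1 array each. The authors deposited average bead intensities that had not been normalised, together with detection p-values; both were extracted with GenomeStudio 2011.01, per the labels' processing notes. The table of the authors named no coordinates or genome build. The cubic spline normalised values that the study tested were not used here.

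Intensities were background corrected by normexp from the detection p-values, quantile normalised and log2 transformed with an offset of 16 (neqc, limma 3.58.1, R 4.3.3). The filter kept 20880 probes that some group detected on all its arrays (detection p-value under 0.05), and the probe of highest mean stood for its target name, leaving 14829. Limma's moderated linear models used 7 co-culture arrays, 9 PA6 arrays, or all 16 for comparisons between the kinds of culture, with Benjamini-Hochberg adjustment over all genes tested and the study's thresholds (adjusted p under 0.1, log2 fold change over 1 in size). Probe values came from a fit over all retained probes. Fold changes of bright probes are compressed, offsets compress those of dim ones, and precision is limited by how few arrays each group has.

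The members and gene lists were chosen with earlier results of these data known. All members were named with each probe. Called genes of the 5 context lists were named as examples, and other called genes were not named. The 3 genes most like each tested member were named too. Marker lists of 7 cell types were used, and the summed levels of neural, endothelial and endoderm lists stand in the closing section. The fits were tested on simulated data. Symbols and promoters were from RefSeq tables on GRCm38.p6.

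The labels say that each biological replicate had 1 well of each condition. Replicate numbers were checked as pairs by the correlation of deviations from group means over genes. For the same number this was 0.07 to 0.20 in PA6 (9 pairs), against -0.14 to -0.01 for different numbers, and -0.20 to 0.28 in co-cultures (6 pairs), against -0.28 to 0.25. The numbers thus separated fully in PA6, although not every pair exceeded 0.1, and did not in co-cultures. Deviations cancel within a group, so the values for the same and for different numbers constrain each other and are not independent. The reported values carry no block, and blocked values stand beside the calls of members that they end or bring. The table's columns fall into 3 runs, which match the replicate numbers in PA6 but not in co-cultures. Co-culture arrays of the same run correlated at 0.098 to 0.28, and those of different runs at -0.28 to 0.098. Whether a replicate number marks the same biological replicate in co-cultures is not known. Alternatives were the background correction, normalization, offset, filters, probes, arrays in the fit, a replicate block, the variance prior, the thresholds and each array left out. Those runs as a block were added after the data had been seen.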

Additional observations from a re-analysis of the deposited data

Results flagged for a closer look

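One result met the criterion of a tested difference between groups. The change of AKP2 with FGF2 was larger in co-cultures than in PA6 mono-cultures by 2.39 ± 0.51 on the log2 scale (SE; adjusted p = 0.0133, limma), with 2.40 in co-cultures and 0.01 in PA6. AKP2 intensity was higher on 3 of 3 FGF2 co-cultures than on both -GFs co-cultures, and in PA6 the groups overlapped, with 4 of 9 arrays not detecting the probe. AKP2 passed the filter through its co-culture groups alone, and a change below the detection limit in PA6 would not be read. The difference between the FGF2 changes of AKP2 ranged from 1.81 to 2.75 over 25 alternatives and was called in all 25. Groups of 2 or 3 arrays were not examined for single distant arrays.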

How the results depend on the processing

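Each comparison was recomputed under every alternative named above. Over the 4 tested members no called value changed direction. Leaving out each array in turn, the number of members called was 2 to 2 with FGF2 in co-cultures, 0 to 2 with BMP4, 0 to 1 for BMP4 against FGF2, 0 to 1, 0 to 0 and 0 to 1 for the same comparisons in PA6, 3 to 3, 3 to 3 and 3 to 4 between the kinds of culture without factors, with FGF2 and with BMP4, and 1 to 1 and 0 to 1 for the difference of the FGF2 and BMP4 changes. A group left with 1 array was assumed to vary like the others. With probes detected on all 16 arrays AKP2 was not tested, and the count was 1 with FGF2 and 1 with BMP4 in co-cultures, 0 for BMP4 against FGF2, 1 for FGF2 in PA6 and 0 for the difference of the FGF2 changes. For BMP4 in co-cultures the count was 1 with no filter, 1 at an adjusted p under 0.05, 1 with runs of columns as a block and 0 with the replicate block. For BMP4 against FGF2 in co-cultures it was 0 with median scaling, no filter, all 16 arrays in the fit, the replicate block or an adjusted p under 0.05. For FGF2 in PA6 it was 1 (SPP1) with no background correction, median scaling, all 16 arrays in the fit or the robust variance prior with a trend. For BMP4 against FGF2 in PA6 it was 0 with no filter and at an adjusted p under 0.05. For the difference of the BMP4 changes it was 1 (SPP1) with no background correction and median scaling. Between the kinds of culture with BMP4, SPARC was also called with runs of columns as a block. Apart from the settings whose construction shows it (a filter that drops AKP2, a stricter threshold, more genes tested), the cause was not tested. Under the replicate block all genes called fell from 556 to 258 for BMP4 and from 214 to 11 for BMP4 against FGF2 in co-cultures, and rose from 4 to 23 for FGF2 and from 46 to 72 for BMP4 against FGF2 in PA6. With runs of columns as a block they were 596 for BMP4 and 560 for BMP4 against FGF2 in co-cultures, so the 2 blocks moved these counts in opposite directions. The replicate block ended the calls of SPP1 and AKP2 with BMP4 and of SPP1 for BMP4 against FGF2 in co-cultures, and no call of a member within PA6. Median scaling moved the median of all genes from -0.06 to -0.21 with FGF2 in co-cultures and from 0.00 to 0.24 for the difference of the BMP4 changes. Probes near the top of the scale (OGN in PA6) and at the detection limit (AKP2 in PA6) limit what these values can show.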

Other observations

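The marker lists of other cell types gave the following summed linear levels. The neural list (12 names, 8 tested) summed to 21342 to 35362 in co-cultures without factors, 16225 to 19961 with FGF2 and 11359 to 11817 with BMP4, against 441 to 630 over all PA6 arrays. With FGF2 NES, HES5 and ELAVL3 were called lower in co-cultures, and with BMP4 DCX, HES5, ELAVL3, ELAVL4 and MAPT were. The endothelial list (11 names, 6 tested) summed to 781 to 926 in co-cultures without factors, 2562 to 4353 with FGF2 and 2235 to 3377 with BMP4, against 1837 to 2792 over all PA6 arrays. In co-cultures PECAM1 was called higher with FGF2 (3.24) and with BMP4 (1.98), as was TEK, which was not detected in co-cultures without factors. The extraembryonic endoderm list summed to 8489 to 13343 over the co-cultures and 30660 to 48157 over PA6, and SOX17, not detected in co-cultures without factors, was called higher there with BMP4. The lists were written with earlier results of these data known, and PTHR1 stood in both the osteoblast and the endoderm list.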
